A study of Mus musculus with 16 samples.

Results

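The genes described here are 10 genes of dietary lipid and bile acid absorption in the small intestine, chosen by their gene names on the array: Fabp1, Fabp2, Fabp6, Apoa1, Apoa4, Apoc3, Apob, Mttp, Alpi and Slc10a2. All 10 were among the 36711 genes measured. Total RNA of colon tissue was taken from 16 SWISS pups (RjOrl:SWISS, an outbred stock) at weaning and labelled with Cy3 for 1-colour Agilent arrays, with 1 array per pup. The CSD group held 8 pups (4 females and 4 males) delivered by hysterectomy and raised by foster mothers. The VD group held 8 pups (2 females and 6 males) born vaginally, whose litters had been exchanged between mothers. The CSD pups were born to mothers 3 and 4 and the VD pups to mothers 5 and 6, so that delivery mode varied only between litters, and delivery mode and litter cannot be fully told apart. Each of the 2 slides held 4 CSD pups and 4 VD pups. Between 58.7% and 64.9% of the spots other than controls were well above background, and the correlation between any 2 arrays was between 0.988 and 0.997. VD pup 11 stood apart in the share of spots, at 58.7% against 63.8% to 64.9% in the other VD pups. Without it the Fabp2 difference of CSD minus VD was 0.62 ± 0.25 (SE) and the Slc10a2 difference -0.10, and 304 genes in all were called between delivery modes, against 460 with it.

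In the small intestine, the enterocyte takes up fatty acids at its brush border, carries them in the cytosol on fatty acid binding proteins, re-esterifies them and exports the fat in chylomicrons. Mttp, the microsomal triglyceride transfer protein, loads lipid onto apolipoprotein B (Apob), and Apoa1, Apoa4 and Apoc3 are the smaller apolipoproteins of the particle, encoded next to each other on chromosome 9. Fabp1 and Fabp2 are the liver and intestinal fatty acid binding proteins. Bile acids, which disperse the fat, are reclaimed in the ileum by the transporter Slc10a2 and bound inside the cell by Fabp6, the ileal lipid binding protein. Alpi is the intestinal alkaline phosphatase of the brush border. Colon absorbs little fat, and the question asked of these genes was whether they were expressed in colon at weaning and whether their level differed with delivery mode.

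The 10 genes were read by 15 probes of 60 bases. The first 30 bases of the probes of Fabp2, Fabp6 and Slc10a2, the genes well above background on every array by every probe, are printed below with the position of the whole probe in mm9, together with 2 of the 3 Apoc3 probes, which gave different readings. All are lower case, 5′ to 3′, as in the scanner output.
Fabp2, plus strand, chr3:122602276-122602335: aggctcattcgtcatcctatcagcactggt
Fabp6, minus strand, chr11:43410973-43411032: aaggtggtggcagagttccccaactatcac
Slc10a2, first probe, minus strand, chr8:5086145-5086204: gccatcatttgatgagacaaacaagggatt
Slc10a2, second probe, minus strand, chr8:5083366-5083425: ggtggcttgtgaggttatttttccccctaa
Apoc3, NM_001289756, minus strand, chr9:46043606-46043665: aagcaggcctgaggtccaaggcttgtcccc
Apoc3, NM_023114, minus strand, chr9:46041353-46041412: atcacttcagatccctgaaaggctactgga

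The promoters of Fabp2 and Slc10a2 are printed because they carry matches to motifs of intestinal transcription factors. The sequences are the 250 bases before the transcript start, from RefSeq (GRCm38.p6). Capitals mark matches to TGNACTTTG, a form bound by HNF4, TTTATNG, a form bound by CDX factors, and the HNF1 consensus site, on either strand.
Fabp2, plus strand, chr3:122894822-122895071: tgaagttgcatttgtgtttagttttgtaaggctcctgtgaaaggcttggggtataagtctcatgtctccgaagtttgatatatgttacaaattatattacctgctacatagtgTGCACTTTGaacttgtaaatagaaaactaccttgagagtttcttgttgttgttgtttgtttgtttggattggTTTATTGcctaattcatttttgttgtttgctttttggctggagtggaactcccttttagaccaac
Slc10a2, minus strand, chr8:5105288-5105537: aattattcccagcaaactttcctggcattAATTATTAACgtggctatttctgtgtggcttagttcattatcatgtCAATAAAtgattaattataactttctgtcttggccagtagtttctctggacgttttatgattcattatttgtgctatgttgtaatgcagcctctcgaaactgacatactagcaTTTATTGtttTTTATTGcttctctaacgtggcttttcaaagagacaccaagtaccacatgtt
In Fabp2 the HNF4 form began 137 bases before the start and the CDX form 65 bases before it. In Slc10a2 the HNF1 form began 221 bases before the start, and CDX forms began 175, 62 and 52 bases before it. Of 32851 promoter stretches of the same length, 1.19% held the HNF4 form, 9.81% the CDX form and 0.371% the HNF1 form. Among the 9 genes with a promoter in the RefSeq table, the HNF4 form was found in 3 (Alpi, Apoa4 and Fabp2), the CDX form in 5 (Alpi, Apob, Fabp1, Fabp2 and Slc10a2) and the HNF1 form in Slc10a2. AGATAA, a form bound by GATA factors, and the inverted repeat bound by FXR were searched too and matched in 0 of the 9, against 9.99% and 0.0244% of all promoters. These are matches of letters only. Apoc3 was not in the promoter table.

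Of the 10 genes, 3 were well above background throughout. Fabp2 and Fabp6 were well above background on all 16 arrays by their only probe, and Slc10a2 by each of its probes. Fabp1, Apoa1 and Apoa4 were well above background on 0 of 16 arrays, and their values lay between 5.86 and 6.19 on the log2 scale of normalized intensity in every pup. Alpi was well above background on 7 arrays, 3 of CSD pups and 4 of VD pups. For Apob, Mttp and Apoc3 the probes of the same gene differed. The first Apob probe was well above background on 13 arrays (7 CSD and 6 VD), and the second on 0. The Mttp probe for NM_001163457 was well above background on 16 arrays at 6.93 to 7.30, whereas the probe for ENSMUST00000197680 was so on 0. The Apoc3 probe at the start of NM_001289756 was well above background on 16 arrays, the probe for NM_001289755 on 5 (1 CSD and 4 VD), and the probe for NM_023114 on 0. Small intestine type expression in colon was thus measured on every array for Fabp2, Fabp6 and Slc10a2. It was measured on some arrays or by some probes for Apoc3, Apob, Mttp and Alpi, and on no array for Fabp1, Apoa1 and Apoa4. Fabp1, Apoa1, Apoa4 and Alpi were each read by 1 probe. For them a lack of transcript and a probe that failed cannot be told apart.

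**Figure D1:**
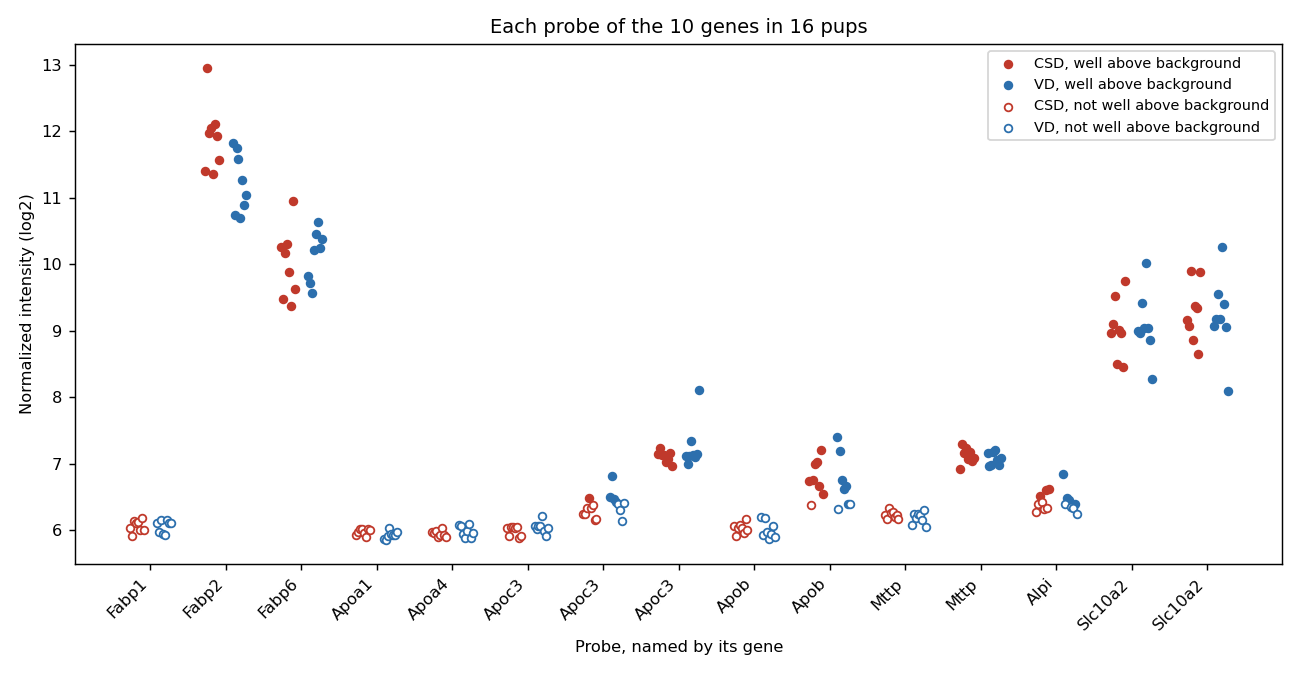
Normalized log2 intensity (y axis) of each probe of the 10 genes (x axis) in 8 CSD pups (red) and 8 VD pups (blue), 1 point per pup. Filled points were well above background and open points were not; the probes of Fabp2, Fabp6 and Slc10a2 are filled in all 16 pups, and those of Fabp1, Apoa1 and Apoa4 are open in all.

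The tissue was checked against marker genes of other sites. Of 10 colonocyte markers, 9 were well above background on all 16 arrays. Hoxb13, a transcription factor of the most distal gut, reached a mean of 16.64 ± 0.11 (SD, n = 8) for the CSD group against 16.78 ± 0.15 (SD, n = 8) for the VD group. Some defining genes of the small intestine were well above background on 0 arrays: Lct and Sis, the lactase and sucrase-isomaltase of its brush border, Npc1l1, the sterol importer, Slc2a2, the basolateral glucose carrier, Gata4, the factor of the proximal gut, and Fgf15, the ileal hormone induced by bile acids. These are a selection. Other genes known from small intestine were well above background on 16 arrays, among them Slc5a1, the sodium-coupled glucose importer, Slc15a1, the peptide importer, Mogat2, which re-esterifies absorbed fat, Creb3l3, Isx and Nr1h4 (FXR), the bile acid receptor, and Pdx1 was so on 15. By list, 29 of 33 genes of lipid uptake, 11 of 19 brush border hydrolases and 14 of 17 nutrient transporters were well above background on all 16. Of 12 hepatocyte markers, 7 were well above background on all 16 arrays and Fgb on 0, and of 11 pancreatic acinar markers, 5 were and 2, Prss2 and Pnlip, were on 0. All these counts stand against 20589 of 36711 genes well above background on all 16 arrays by their best probe. A list near that share says little of its cell type or site.

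Fabp2, which binds long-chain fatty acids in the enterocyte, showed the largest difference between delivery modes among the 10 genes and was higher in CSD pups, but the difference did not pass the test. In CSD pups its normalized log2 intensity was 11.41 in CSD pup 1, 12.96 in CSD pup 2, 11.98 in CSD pup 3, 12.04 in CSD pup 5, 11.36 in CSD pup 6, 12.10 in CSD pup 7, 11.93 in CSD pup 8 and 11.57 in CSD pup 9. In VD pups it was 11.82 in VD pup 4, 10.75 in VD pup 5, 11.75 in VD pup 6, 11.58 in VD pup 7, 10.69 in VD pup 8, 11.27 in VD pup 9, 10.89 in VD pup 10 and 11.04 in VD pup 11. CSD pup 2 was the highest and VD pup 8 the lowest, 5 CSD pups lay above every VD pup, 5 VD pups lay below every CSD pup, and the groups overlapped. How many of all genes had as many pups apart was not counted, so these counts are no measure of a difference. The means were 11.92 ± 0.51 (SD, n = 8) for the CSD group against 11.23 ± 0.45 (SD, n = 8) for the VD group. The fitted difference of CSD minus VD was 0.63 ± 0.24 (SE) on the log2 scale, with an adjusted p of 0.207 over all genes (limma). The exact two-sided permutation test over the pups, which takes no account of litter or sex, gave p = 0.0107, unadjusted, the smallest of 10 such tests. Over the 16 pups Fabp2 fell as the summed signal of smooth muscle markers rose (r = -0.69, given with its tests beside the other cell types), and the part of this in the difference between delivery modes was not tested. CSD pup 2 led all pups not for Fabp2 alone but also for Slc13a2, a dicarboxylate transporter, Reg4, a secreted lectin (15.72), Pdx1 (6.89) and the colonocyte enzyme Car1 (15.33). Among VD pups, pup 4 led for Fabp2, Slc13a2, Reg4 and Pdx1, and pup 8 for Car1. For Slc13a2 7 VD pups and for Reg4 6 VD pups lay below every CSD pup. The share of all genes that separate this far was not counted, and no fitted difference is given for either. The counts are therefore no measure of a difference between delivery modes. These genes were singled out after their values were seen, and their relation to Fabp2 was not tested.

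Fabp2 was higher in each CSD litter than in each VD litter on average. The means were 11.88 ± 0.21 (SD, n = 4) in the litter of mother 3, 11.96 ± 0.75 (SD, n = 4) in that of mother 4, 11.15 ± 0.42 (SD, n = 5) in that of mother 5 and 11.34 ± 0.57 (SD, n = 3) in that of mother 6. The pups of mother 4 covered the whole range of the CSD group, from 11.36 to 12.96. Within slide 1 the difference of CSD minus VD was 0.82 ± 0.19 (SE), and within slide 2 it was 0.44 ± 0.28 (SE), with limma adjusted p of 0.426 and 0.663. Without the litter of mother 5 it was 0.40 ± 0.32 (SE), a move of more than 1.5 times, and without VD pup 5, 0.47 ± 0.23 (SE). All VD females were pups of mother 5, so that leaving out this litter leaves VD males only. In males alone the difference was 0.54 ± 0.23 (SE), adjusted p = 0.515 (limma).

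The genes of ileal bile acid uptake, Slc10a2 and Fabp6, did not pass the test between delivery modes either. Fabp6, the cytosolic bile acid carrier, was at 10.25 in CSD pup 1, 9.48 in CSD pup 2, 10.17 in CSD pup 3, 10.30 in CSD pup 5, 9.88 in CSD pup 6, 9.38 in CSD pup 7, 10.95 in CSD pup 8 and 9.63 in CSD pup 9. In VD pups it was at 9.82 in VD pup 4, 9.72 in VD pup 5, 9.57 in VD pup 6, 10.21 in VD pup 7, 10.45 in VD pup 8, 10.63 in VD pup 9, 10.25 in VD pup 10 and 10.38 in VD pup 11. CSD pup 8 was the highest and CSD pup 7 the lowest, and the VD pups lay within the range of the CSD pups. The means were 10.01 ± 0.52 (SD, n = 8) for the CSD group against 10.13 ± 0.38 (SD, n = 8) for the VD group, and the fitted difference was -0.08 ± 0.23 (SE), adjusted p = 0.907 (limma). It was -0.34 ± 0.21 (SE) without the litter of mother 3, -0.29 ± 0.30 (SE) in males and 0.21 without the litter of mother 4.

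Slc10a2, the sodium-dependent bile acid importer of the ileum, was at 9.07 in CSD pup 1, 9.08 in CSD pup 2, 9.71 in CSD pup 3, 8.68 in CSD pup 5, 9.19 in CSD pup 6, 9.15 in CSD pup 7, 8.55 in CSD pup 8 and 9.82 in CSD pup 9, as the mean of its probes. In VD pups it was at 9.04 in VD pup 4, 9.07 in VD pup 5, 9.48 in VD pup 6, 9.11 in VD pup 7, 10.14 in VD pup 8, 9.23 in VD pup 9, 8.96 in VD pup 10 and 8.18 in VD pup 11. VD pup 8 was the highest and VD pup 11 the lowest of all pups, and the CSD pups lay between them. The means were 9.16 ± 0.44 (SD, n = 8) and 9.15 ± 0.55 (SD, n = 8) in CSD and VD pups, with a fitted difference of 0.02 ± 0.25 (SE) and an adjusted p of 0.982 (limma). The fitted difference was -0.40 ± 0.29 (SE) without the litter of mother 5 and 0.25 ± 0.20 (SE) without that of mother 6. The mean difference of CSD minus VD was 0.06 by the first probe and -0.04 by the second. VD pup 11 had the lowest share of spots well above background, 58.7%, and the part of this in its low Slc10a2 value was not tested.

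**Figure D2:**
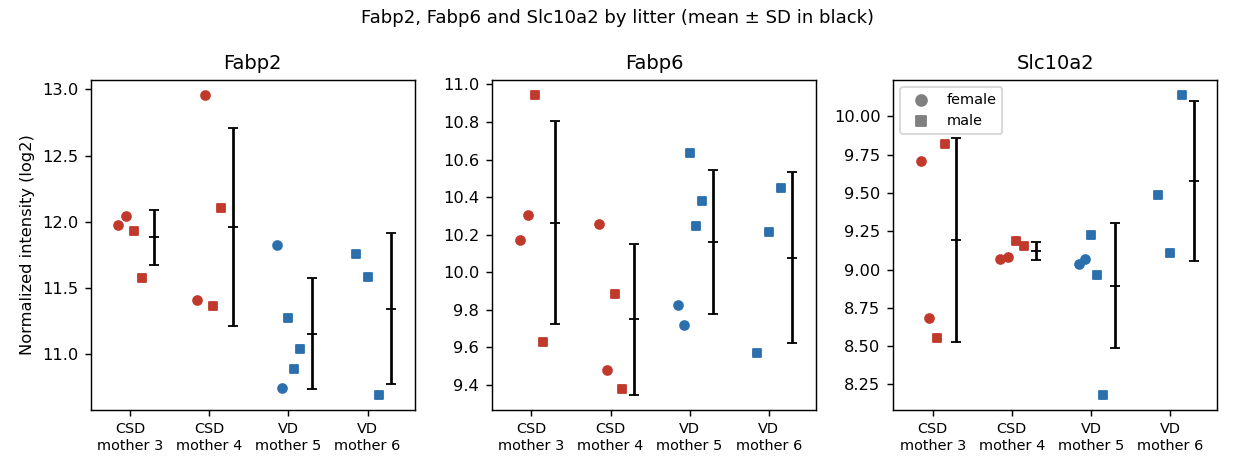
Normalized log2 intensity (y axes, each on its own scale) of Fabp2, Fabp6 and Slc10a2 by litter (x axis), 1 point per pup (circles female, squares male), with the litter mean ± SD in black. The Fabp2 means of both CSD litters, 11.88 and 11.96, lie above those of the VD litters, 11.15 and 11.34, and the pups of CSD and VD litters overlap for all 3 genes.

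The genes of chylomicron assembly did not pass the test between delivery modes. For Mttp, which loads fat onto apolipoprotein B, the mean of its probes ran from 6.58 to 6.75 (median 6.68) in CSD pups and from 6.56 to 6.72 (median 6.61) in VD pups, and the difference was 0.05 ± 0.04 (SE), adjusted p = 0.626 (limma). Apob, the scaffold of the particle, ran from 6.15 to 6.69 (median 6.40) in CSD pups and from 6.12 to 6.80 (median 6.27) in VD pups, with a difference of 0.05 ± 0.11 (SE) and an adjusted p of 0.896 (limma). Their groups overlapped. With only probes well above background on at least 8 arrays, the differences were 0.04 ± 0.06 (SE) for Mttp and 0.06 ± 0.18 (SE) for Apob. The sizes varied with the processing. For Mttp the difference was 0.11 with normexp offset 0, 0.12 with the quantile-normalized scanner-corrected intensity, 0.12 with the deposited matrix and -0.0136 without the litter of mother 5. For Apob it was 0.16 with offset 0, 0.19 with the deposited matrix, 0.22 on slide 1 and -0.14 on slide 2, with limma adjusted p of 0.605 and 0.842 on the slides.

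Apoc3, an inhibitor of triglyceride clearance, ran from 6.35 to 6.55 (median 6.47) in CSD pups and from 6.40 to 6.85 (median 6.57) in VD pups, as the mean of its probes. It differed by -0.13 ± 0.05 (SE), with an adjusted p of 0.300 (limma). This SE rests in part on probes that were not well above background, and with only probes well above background on at least 8 arrays the difference was -0.13 ± 0.14 (SE), adjusted p = 0.682 (limma), and no longer reached 0.05 before adjustment. Its size varied with the processing, from -0.38 with the quantile-normalized scanner-corrected intensity, -0.32 with the deposited matrix and -0.30 with normexp offset 0 to -0.07 on slide 1. By its NM_001289756 probe alone, the CSD pups were at 7.11 ± 0.09 (SD, n = 8) and the VD pups at 7.26 ± 0.36 (SD, n = 8), and VD pup 11 stood above the rest at 8.11. Without that pup the VD mean was 7.14 ± 0.11 (SD, n = 7), and the difference of the means shrank from -0.15 to -0.03. Alpi, which removes phosphate from luminal compounds, ran from 6.27 to 6.61 (median 6.41) in CSD pups and from 6.25 to 6.85 (median 6.39) in VD pups, with a difference of -0.01 ± 0.08 (SE), adjusted p = 0.956 (limma). For Fabp1, Apoa1 and Apoa4, which were not well above background in either group, no fold is given.

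Between delivery modes 0 of the 10 genes passed an adjusted p under 0.05 by limma, and Fabp2 and Apoc3 alone, 2 of them, reached 0.05 before adjustment, Apoc3 only as the mean of all its probes. Across all genes 460 of 36711, or 1.25%, were called, and 5307 reached 0.05 before adjustment. Of the 10, 6 had a higher fitted value in CSD pups, and the median difference was 0.0173, against 0.0029 over all genes. Fabp1, Apoa1 and Apoa4 are included in these counts although they were not well above background. The other comparisons called none of the 10 by limma. Between females and males 0 of 10 were called, against 0.0599% of all genes, and 0 of 10 had an unadjusted p under 0.05, as 6.45% of all genes did. Between the CSD litters 0 of 10 were called, against 0.0872% of all genes, and between the VD litters 0 of 10, against 0.874%; the counts at an unadjusted p under 0.05 were 0 and 1, against 7.68% and 11.5% of all genes. The test of whether the delivery difference depended on sex called 0 of 10, against 0.00272% of all genes, with 0 of 10 at an unadjusted p under 0.05, against 4.72%.

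The differences of Fabp6 and Slc10a2 between litters of the same delivery mode were larger in size than those between delivery modes, but none passed the test. Fabp6 differed by 0.51 ± 0.29 (SE) between mother 3 and mother 4 (adjusted p = 0.738, limma), with litter means of 10.26 and 9.75. Slc10a2 differed by -0.71 ± 0.33 (SE) between mother 5 and mother 6, with an adjusted p of 0.432 (limma) and litter means of 8.90 and 9.58. The other litter comparison of each gene gave 0.16 ± 0.31 (SE) for Fabp6 between mother 5 and mother 6, and 0.07 ± 0.31 (SE) for Slc10a2 between mother 3 and mother 4. These lay within 1 SE of 0. The larger values rested in part on single pups. Without CSD pup 8 the Fabp6 difference was 0.29, and without VD pup 8 that of Slc10a2 was -0.43, and over all single pups left out they ran from 0.29 to 0.78 and from -0.95 to -0.43. The 4 pups of mother 4 had Slc10a2 values between 9.07 and 9.19, whereas those of mother 3 split into a pair at 8.55 and 8.68 and a pair at 9.71 and 9.82.

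Fabp2, Slc10a2 and Fabp6 varied more from pup to pup than most genes. Their SD over the 16 pups was 0.59, 0.48 and 0.45, which was larger than that of 98.0%, 97.0% and 96.6% of the 20589 genes well above background on all arrays (median SD 0.12). This SD includes any difference between the groups, and for Fabp2 it was 0.51 within CSD pups and 0.45 within VD pups. The ranking takes no account of signal strength or of the number of probes averaged. The highest pup exceeded the lowest 4.80-fold for Fabp2, 3.89-fold for Slc10a2 and 2.96-fold for Fabp6 on the linear scale of normalized intensity. Without the highest pup of each gene, the range was 2.66-fold for Fabp2 (without CSD pup 2). It was 3.11-fold for Slc10a2 (without VD pup 8) and 2.39-fold for Fabp6 (without CSD pup 8).

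No correlation between these 3 genes across pups passed the test. Pearson's r over 16 pups was -0.35 for Fabp2 and Fabp6 (Spearman's rho -0.40, permutation p = 0.187 and 0.124), -0.28 for Fabp6 and Slc10a2 (rho -0.31, permutation p = 0.300 and 0.243) and -0.11 for Fabp2 and Slc10a2 (rho -0.09, permutation p = 0.697 and 0.747). Adjusted over the 45 pairs of the 10 genes, these p-values were 0.710, 0.710 and 0.969 for r. Without the pair of pups farthest from the median of the first gene, r was -0.08, -0.15 and 0.20. Within slides 1 and 2, r was 0.02 and -0.66 for Fabp2 and Fabp6, -0.38 and -0.23 for Fabp6 and Slc10a2, and 0.15 and -0.23 for Fabp2 and Slc10a2. Of the 45 pairs, 0 passed an adjusted p under 0.05, 4 had an unadjusted permutation p under 0.05 for r, and 5 had one for rho. The smallest belonged to Apoa1 and Apoa4, both not well above background. Of the pairs with Alpi, which was well above background on 7 of the 16 arrays, Fabp6 and Alpi had r = -0.51 (rho -0.63, permutation p = 0.0406 and 0.0104, adjusted p = 0.456 and 0.233), and Fabp2 and Alpi had r = 0.35 (rho 0.54, permutation p = 0.183 and 0.0349, adjusted p = 0.710 and 0.393).

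**Figure D3:**
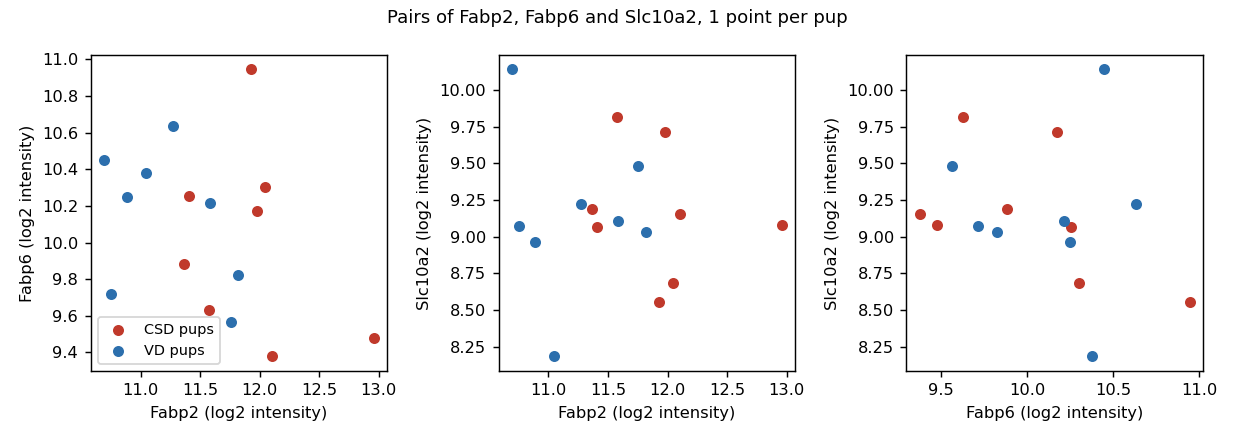
Normalized log2 intensity of pairs of Fabp2, Fabp6 and Slc10a2 (both axes), 1 point per pup, CSD red and VD blue. The points form no line in any of the pairs (r of -0.35, -0.11 and -0.28 from left to right), and CSD pup 2 lies alone at a Fabp2 value of 12.96.

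The genes most like each of the 10 across the 16 pups were sought among 22814 other genes well above background on at least 8 arrays. For Fabp2 they were Mgat4c (r = 0.90), a glycosyltransferase gene, and features of the array named only by a position on chromosome 2 (r = 0.91) and chromosome 1 (r = 0.87). For Alpi, which was well above background on only 7 of the 16 arrays, they were the carboxylesterase genes Ces2c (r = 0.89), Ces2b (r = 0.87) and Ces2f (r = 0.80). For Fabp6 they were Cpsf1 (r = 0.86), Drg2 (r = 0.86) and Thoc6 (r = 0.86), and for Slc10a2 they were 5330438D12Rik (r = 0.81), AK136555 (r = 0.79) and a feature named only by a position on chromosome 16 (r = 0.79). For Mttp the nearest were Fam110c (r = 0.87), Phkb (r = 0.86) and Tbc1d32 (r = 0.86), for Apoc3 they were Zfp945 (r = 0.87), A430035B10Rik (r = 0.87) and LOC102640328 (r = 0.86), and for Apob a feature on chromosome 4, Cdkn1b and Gm19710 (r = 0.72 for each). These are the top of many genes over few pups and describe likeness only. The nearest genes of Fabp1 (Daglb, Gm1070 and Xrcc3), Apoa1 (Gprc5d, CR520823 and Ndufb6) and Apoa4 (Chrne, Gm26641 and Wfdc16) are those of signals that were not well above background.

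Beyond the 10 genes, 3 other genes of absorption were lower in CSD pups and passed the test. The lists that hold them were chosen with earlier results of these data known. Abcg5, which with its partner Abcg8 pumps sterols back into the gut lumen, was at 8.88 ± 0.24 (SD, n = 8) for the CSD group against 9.80 ± 0.39 (SD, n = 8) for the VD group, and fell by 0.85 ± 0.15 (SE) in CSD pups, adjusted p = 0.0130 (limma). All CSD pups but 1 lay below every VD pup. Abcg8 lies on the opposite strand, with 109 bases between the nearer of its listed transcript starts and that of Abcg5. It was at 8.85 ± 0.13 (SD, n = 8) and 8.84 ± 0.10 (SD, n = 8), with a difference of -0.01 as fitted with sex in the model, adjusted p = 0.976 (limma). Anpep, an aminopeptidase of the brush border, was at 11.55 ± 0.11 (SD, n = 8) for the CSD group against 11.88 ± 0.07 (SD, n = 8) for the VD group, and fell by 0.35 ± 0.05 (SE), adjusted p = 0.00472 (limma). Slc46a1, the proton-coupled folate transporter, was at 11.79 ± 0.20 (SD, n = 8) and 12.39 ± 0.20 (SD, n = 8) and fell by 0.60 ± 0.10 (SE), adjusted p = 0.0117 (limma). For Anpep and Slc46a1 all 8 CSD pups lay below all 8 VD pups, as the groups did not overlap for 0.496% of all genes, and 0.548% of all genes were called and lower in CSD pups. Within either slide alone, in males alone and with litter means as samples, 0 of the 3 passed the test, though each stayed lower in CSD pups. The differences on slide 1, on slide 2, in males and with litter means were -0.90, -0.81, -1.08 and -0.94 for Abcg5, -0.42, -0.28, -0.31 and -0.33 for Anpep, and -0.67, -0.52, -0.49 and -0.58 for Slc46a1. Without the litter of mother 3 the difference of Abcg5 was -0.68 (adjusted p = 0.0852, limma). Without that of mother 5 the differences of Anpep and Slc46a1 were -0.30 and -0.46 (adjusted p = 0.125 and 0.156, limma).

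**Figure D4:**
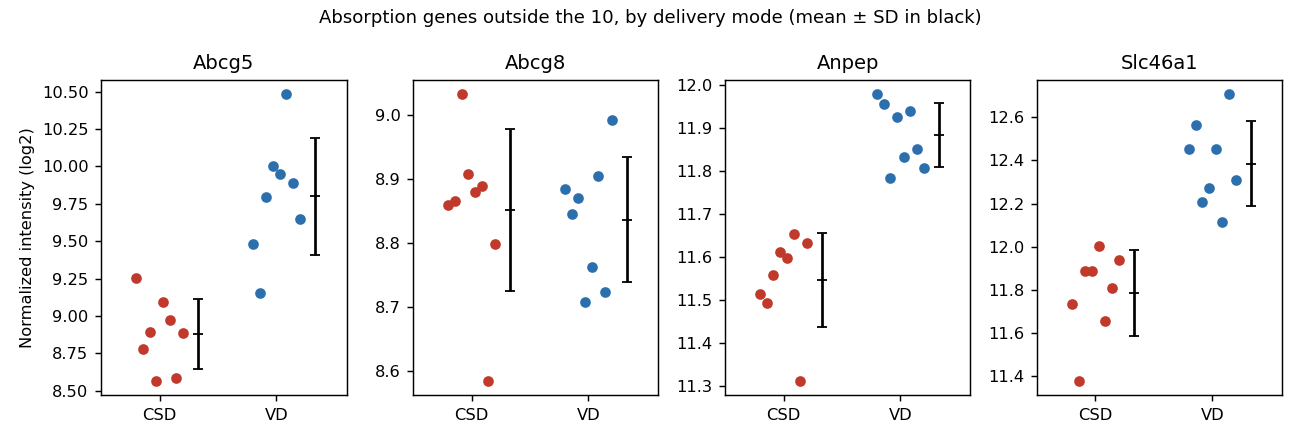
Normalized log2 intensity (y axes, each on its own scale) of Abcg5, Abcg8, Anpep and Slc46a1 in CSD (red) and VD pups (blue), 1 point per pup, with the group mean ± SD in black. Anpep and Slc46a1 show no overlap between groups and Abcg5 an overlap of 1 CSD pup with 1 VD pup, whereas Abcg8 overlaps throughout.

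The rest of the absorption pathway was mostly measured and mostly not called. Of 33 genes of lipid uptake, esterification and chylomicron formation, 29 were well above background on all 16 arrays, 16 had a higher and 17 a lower fitted value in CSD pups, 0 were called higher and 1, Abcg5, was called lower, 7 had an unadjusted p under 0.05, and the median difference was -0.0046, against 0.0029 over all genes. Of 11 genes of ileal bile acid and cobalamin handling, 0 were called by limma while 2 had an unadjusted p under 0.05, and the smallest p-values belonged to Nr1h4, the bile acid receptor (0.22 ± 0.07 SE, adjusted p = 0.162, limma), and Tcn2, the cobalamin carrier (-0.10 ± 0.05 SE, adjusted p = 0.345, limma). Of 19 brush border hydrolases, 0 were called higher and 1, Anpep, lower, and of 17 nutrient transporters, 0 were called higher and 1, Slc46a1, lower, with median differences of -0.0238 and -0.0351 and with 4 and 3 genes at an unadjusted p under 0.05. Over all genes, 14.5% had an unadjusted p under 0.05, and 20589 of 36711 were well above background on all 16 arrays. The lists were chosen with earlier results of these data known.

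Paralogs and regional genes did not pass the test. The counts in this paragraph stand against 1.25% of all genes called and 14.5% at an unadjusted p under 0.05. Of 15 paralogs of the 10 genes on the array, 0 were called while 3 reached 0.05 before adjustment, and the smallest p-values belonged to Fabp5, the epidermal fatty acid binding protein, at -0.40 ± 0.10 (SE, adjusted p = 0.0750, limma), and Slc10a6, at 0.22 ± 0.09 (SE, adjusted p = 0.235, limma). Of 19 regional transcription factors, 0 were called while 3 reached 0.05 before adjustment, and the smallest p-values belonged to Hoxa13, a distal gut factor, at 0.39 ± 0.11 (SE, adjusted p = 0.0902, limma), and Gata6, at 0.14 ± 0.05 (SE, adjusted p = 0.168, limma). Of 8 genes of the switch at weaning, 0 were called while 2 reached 0.05 before adjustment, and Ass1 and Fcgrt, the neonatal Fc receptor, had the smallest p-values, at -0.12 ± 0.05 (SE) and -0.20 ± 0.09 (SE), adjusted p = 0.241 and 0.270 (limma).

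**Figure D5:**
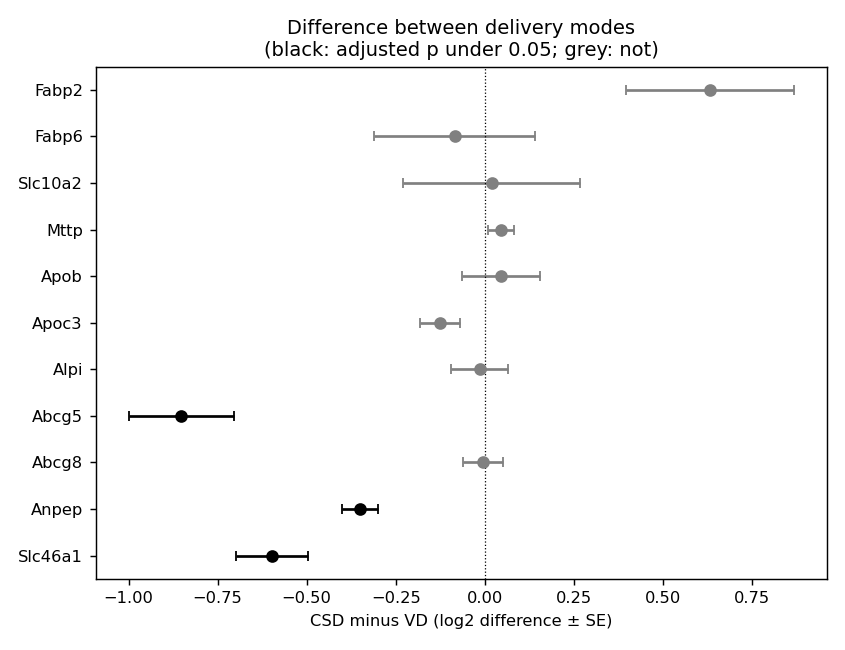
Difference of CSD minus VD on the log2 scale (x axis), as fitted by limma ± SE, for the 7 genes with a probe well above background on some arrays, and for Abcg5, Abcg8, Anpep and Slc46a1 (y axis). Abcg5 (-0.85), Slc46a1 (-0.60) and Anpep (-0.35) in black passed an adjusted p under 0.05; Fabp2 (0.63) and the others in grey did not.

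Markers of other cell types differed between pups as well, and in bulk tissue fewer cells of a type and less RNA per cell cannot be told apart. The counts that follow stand against 14.5% of all genes at an unadjusted p under 0.05 and 1.25% called. Of 6 immune cell markers, 6 had a lower fitted value in CSD pups, 4 of them with an unadjusted p under 0.05, and 0 were called, with the smallest p-value for Cd79a (-0.48 ± 0.14 SE, adjusted p = 0.0993, limma). Their intensities were summed on the linear scale, so that the probe with the strongest signal weighs most, and the sums serve only to set pups against each other. On the log2 scale these sums, weighted most by the Jchain probe, ran from 12.76 to 15.43 (median 14.12) in CSD pups and from 14.61 to 16.10 (median 15.12) in VD pups. Of 7 adipocyte markers, 7 were lower, 1 with an unadjusted p under 0.05, and 0 were called, with Lep and Cfd first (-0.08 ± 0.04 SE and -0.75 ± 0.74 SE, adjusted p = 0.328 and 0.707, limma), and the sums, weighted most by the Cfd probe, ran from 10.36 to 15.55 in CSD pups and 12.86 to 15.65 in VD pups. Of 7 Paneth cell markers on the array, 6 had a higher fitted value in CSD pups, 3 of them with an unadjusted p under 0.05 (Ang4, Pla2g2a and Mptx2), while Lyz1, the lysozyme of Paneth cells, was at -0.34 ± 0.15 (SE, adjusted p = 0.310, limma). Of the 7, 4 were well above background on all 16 arrays, Defa24 on 11, Pla2g2a on 9 and Mmp7 on 1. The cell type only names the list, and whether the colon held Paneth cells was not tested. The median difference of the 7 markers was 1.26, and 1 marker, Ang4, was called higher (3.66 ± 0.84 SE, adjusted p = 0.0465, limma). The Ang4 call was lost in 27 of 38 alternatives (adjusted p from 0.0209 to 0.529, limma), while its difference stayed between 2.78 and 4.56. Their sums, weighted most by the Mptx2 probe, ran from 14.52 to 17.78 (median 16.44) in CSD pups and from 14.23 to 17.60 (median 14.88) in VD pups. Of 10 colonocyte markers, 8 had a higher fitted value, 1 with an unadjusted p under 0.05, and 0 were called, with Slc26a3 and Aqp4 first (0.45 ± 0.13 SE and 0.31 ± 0.15 SE, adjusted p = 0.113 and 0.362, limma). Of 9 markers shared by gut epithelium, 6 were higher, 1 with an unadjusted p under 0.05, and 0 were called, with Epcam and Elf3 first (0.17 ± 0.07 SE and -0.23 ± 0.11 SE, adjusted p = 0.257 and 0.365, limma), and their sums, weighted most by the Krt8 probe, ran from 18.95 to 19.46 in CSD pups and from 19.01 to 19.38 in VD pups. Hepatocyte markers (Serpina1b and Serpina1a first, at -0.56 and -0.55, adjusted p = 0.132 and 0.242, limma), pancreatic acinar markers (Cpb1 and Pnliprp2, at 0.37 and 0.22, adjusted p = 0.132 and 0.366, limma), smooth muscle markers (Acta2 and Tagln, at -0.17 and -0.13, adjusted p = 0.419 and 0.530, limma) and housekeeping genes (Gapdh and Actb, at -0.16 and -0.12, adjusted p = 0.167 and 0.345, limma) held 0 calls, with 2, 1, 0 and 2 genes at an unadjusted p under 0.05. Fabp2 was set against the summed markers of each of 8 cell types over the 16 pups, a comparison chosen after its values were seen. With the Paneth cell sums it had r = 0.54 (rho 0.48, permutation p = 0.0285 and 0.0618, adjusted over the 8 lists 0.109 and 0.247), which was 0.44 without CSD pup 2 and VD pup 7, 0.23 and 0.69 within slides 1 and 2, and 0.38 and 0.25 within CSD and VD pups. With the smooth muscle sums, which ran from 17.56 to 18.18 (median 17.76) in CSD pups and from 17.79 to 18.24 (median 17.90) in VD pups and were weighted most by the Tagln probe, it had r = -0.69 (rho -0.71, permutation p = 0.0025 for each, adjusted 0.0204 and 0.0198), the 1 relation of the 8 that passed. This r was -0.53 without VD pups 5 and 8, -0.73 and -0.75 within slides 1 and 2, and -0.45 and -0.86 within CSD and VD pups. The r over 16 pups takes no account of delivery mode or litter. Its adjustment covers the 8 lists and not the choice of Fabp2 among the 10 genes. With the immune cell sums r was -0.52 (rho -0.39, permutation p = 0.0407 and 0.131, adjusted 0.109 and 0.349), -0.18 without CSD pups 2 and 3, and -0.49 and -0.67 within slides 1 and 2, while within CSD and VD pups it was -0.59 and 0.50, with the sign turned. The part of these cell types in the differences of Fabp2, Abcg5, Anpep and Slc46a1 was not tested.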

How the data were processed

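Colon RNA of 8 CSD and 8 VD pups was measured on 1-colour Agilent arrays. The labels gave each pup's group, sex, mother and number, and the scanner files its slide. The labels do not say whether pups shared a cage or foster mother, and p-values measure the spread between these pups. For each array the authors deposited scanner output, with the mean intensity, local background and corrected intensity of each spot (Feature Extraction, linear scale), and a gene matrix of 27036 genes in normalized log2 units, which the authors corrected, quantile normalized, filtered and averaged by gene with limma 3.38. It held 7 of the 10 genes and served as an alternative, and 0 of its value columns lacked a sample.

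With limma 3.58.1 in R 4.3.3, mean intensities of 62976 spots per array were corrected by normexp (offset 50). Control spots were dropped, as were the 65 to 205 spots of an array that carried an outlier mark. Log2 values of 59305 spots were quantile normalized, spots of a probe averaged, and 56366 of 56605 probes kept, namely those exceeding the 5% quantile in 4 arrays or more. Probes were then averaged by gene name (36711 genes, 218 of them without a value on at least 1 array). The model took delivery mode and sex as fixed and mother as random (duplicateCorrelation, 0.0152), with Benjamini-Hochberg adjustment and calls at an adjusted p under 0.05. Litters were compared with mother and sex as fixed effects. Two-sided exact permutation tests used all 12870 assignments of the pups, and correlations 100000 permutations. A probe counted as well above background by the scanner software's mark. Levels are compared between pups, not between probes. The model was tested on simulated data.

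The 10 genes and the other lists were chosen with earlier results of these data known. Named are the 10 genes, of each other list the genes called or else the 2 with the smallest p, and for each of the 10 the 3 genes most alike over the pups. The values of 1 gene that this rule names are not reported here. Genes cited for detection alone were chosen after their values were seen. Alternatives covered background correction, normalization, the filter on dim probes, the choice of probe, the deposited matrix, eBayes with trend and robust, slide, sex, mother, litter means, pup number as a block, the threshold, and leaving out each pup or litter. Positions of probes (mm9) come from the scanner files, and promoters those of RefSeq (GRCm38.p6).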

Additional observations from a re-analysis of the deposited data

Results flagged for a closer look

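Of 28 sets of 8 values examined (10 genes of lipid absorption and 4 other absorption genes, each in CSD and in VD pups), 4 held a pup that stood apart from the rest of its group by Dixon's test, where chance alone gives about 1 in 20. Fabp2 in CSD pup 2 was at 12.96, with the next CSD pup at 12.10. Apoc3 in VD pup 11 was at 6.85, with the next at 6.61. Alpi in VD pup 4 was at 6.85, with the next at 6.48. Anpep in CSD pup 8 was at 11.31, with the next at 11.49. The share of spots well above background was examined apart from the 28 sets, by the same test but only for the lowest pup of each group. VD pup 11 stood apart at 58.7%, with the next VD pup at 63.8%. Without CSD pup 2 the Fabp2 difference of CSD minus VD was 0.53 ± 0.20 (SE), without VD pup 11 that of Apoc3 was -0.09 ± 0.04 (SE), and without VD pup 4 that of Alpi was 0.08 ± 0.06 (SE), against -0.01 with all pups. Without CSD pup 8 Anpep fell by 0.31 ± 0.04 (SE) in CSD pups.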

How the results depend on the processing

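In each of the 38 alternatives between delivery modes and the 26 of each other comparison, 0 of the genes of lipid absorption were called, and the Fabp2 difference stayed above 0, from 0.40 to 0.82, with adjusted p from 0.0564 to 0.663 (limma). Its smallest adjusted p was without the litter of mother 6. The number of genes called between CSD and VD pups was less stable. Against 460, it was 102 with normexp offset 0, 243 with offset 16, 177 and 164 with the scanner-corrected intensity (quantile normalized and minus the 75th percentile), 170 with the deposited matrix, 992 without sex, 1126 at an adjusted p under 0.1, and 11 on slide 1. It was 0 by limma on slide 2, in males and with litter means, where fewer samples enter the fit and 3789, 3295 and 4034 genes had an unadjusted p under 0.05. It was 212, 138, 189 and 2265 without the litters of mothers 3, 4, 5 and 6, and 145 (without VD pup 4) to 617 (without VD pup 7) when single pups were left out. Against 32 between the CSD litters it was 21 with offset 0, 59 with only probes well above background, 69 with the brightest probe, and 23 to 44 without single pups. Against 321 between the VD litters it was 128 with offset 0, 150 and 109 with the scanner-corrected intensity, and 77 (without VD pup 9) to 370 without single pups. For delivery by sex, against 1, it was 5 with the quantile-normalized scanner-corrected intensity, 2 with slide as a fixed effect and up to 127 (without VD pup 4), from 1. Leaving out VD pup 4 or 5 leaves 1 VD female, which is then assumed to vary like the other groups. Between sexes it was 17 to 28 without single pups.

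The causes were not tested. Differences near 0 changed sign. With litter means, Slc10a2 was at -0.0795, Alpi at 0.0040 and Abcg8 at 0.0269; in males Slc10a2 was at -0.0049 and Alpi at 0.10; without sex Alpi was at 0.0019 and Abcg8 at 0.0158. On slide 1 Fabp6 was at 0.0489, Slc10a2 at -0.0481, Alpi at 0.0530 and Abcg8 at 0.0116, and on slide 2 Apob was at -0.14. Without the litter of mother 3 Apob was at -0.0171 and Abcg8 at 0.0323, without that of mother 4 Fabp6 was at 0.21 and Alpi at 0.0035, and without that of mother 5 Slc10a2 was at -0.40, Mttp at -0.0136, Alpi at 0.0455 and Abcg8 at 0.0077. Alpi was at 0.0104 with the intensity minus the 75th percentile. Without single pups the ranges were -0.26 to 0.0553 for Fabp6, -0.11 to 0.15 for Slc10a2, -0.0159 to 0.15 for Apob, -0.0568 to 0.0755 for Alpi and -0.0222 to 0.0391 for Abcg8. With the deposited matrix 0 of 7 group means (by adjusted exact permutation p) and 0 of its pairs of genes passed.

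The numbers in the pups' titles, 5 of which occur in both groups, were used as a replicate block in place of the mother. Deviations of same-numbered pups from their group means had correlations of -0.05 to 0.22, over 0.1 for 2 of the 5, so that the numbers were not taken as a pairing. With the block 697 genes were called and 0 of the 10 genes.

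Signal over background limits what can be said of Fabp1, Apoa1 and Apoa4 on every array and of Alpi and Apob on some. The design has 2 litters per delivery mode, and the litter correlation is estimated from few litters.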
